A study of Mus musculus with 10 samples.

Results

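RUNX1 binding was described at 3 genes that encode inhibitors of TGFβ signalling, Smad7, Smad6 and Skil, in mouse large biliary epithelial (MLE) cells, a model of the epithelium of the larger bile ducts. The members were chosen by position alone. All peaks with a summit in a window of each gene with flanks of about 50 kb were taken: chromosome 18 from 75.45 to 75.58 Mb for Smad7, chromosome 9 from 63.81 to 63.98 Mb for Smad6, and chromosome 3 from 31.1 to 31.23 Mb for Skil (GRCm39). Overlapping peaks were merged into sites, which gave 30 sites (14, 11 and 5) of the 64286 regions found over the whole genome. The data are the peak lists of 6 RUNX1 chromatin immunoprecipitation sequencing (ChIP-seq) libraries, which record where DNA bound to RUNX1 was recovered in excess of the background. In 3 libraries the cells, near confluence, had received TGFβ (written TGFb in the labels) at 10 ng/mL overnight, and in the other 3 vehicle, whose composition the labels do not give. Each treatment has 2 libraries from batch 1 (libraries 1 and 2) and 1 from batch 2 (library 3). All groups are the same cells with no stated genetic change, and the labels do not say whether the 2 batch 1 libraries of a treatment are from different cultures, so the p-values measure the spread between libraries, which may be technical.

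TGFβ receptors phosphorylate the transcription factors SMAD2 and SMAD3, which bind SMAD4 and act on genes in the nucleus together with partners such as the RUNX factors. SMAD7 and SMAD6 are inhibitory SMADs: SMAD7 blocks TGFβ receptors and recruits ubiquitin ligases to them, and SMAD6 acts mainly on the related BMP branch. SKIL (SnoN) is a nuclear co-repressor that binds SMAD complexes and is degraded and then made anew after TGFβ stimulation. Smad7 and Skil are known as rapid targets of the pathway that they restrain, which makes them feedback inhibitors.

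Library sizes are unknown from the lists, but the number of overlapping DNA fragments at each summit, and the background the caller used, could be recovered from the deposited fold enrichment and p-value. The lowest background was 10.4 to 11.8 fragments in the 6 libraries. The lists held 14733 to 42050 peaks and were longer with TGFβ than with vehicle in each of the 3 pairs, by 2.28-, 1.95- and 1.16-fold. At the lowest background the weakest peaks called had folds of 1.93 to 2.08, from 21 to 25 fragments. A site that is not called in a list was therefore not detectable at that list's threshold, which does not show that RUNX1 was absent. The fold of a peak is the authors' own value, and its 95% exact Poisson interval, from the recovered fragment number, covers counting error only. Expression was not measured, so the labelled cell type could not be checked against its markers here.

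RUNX1 peaks were called near all 3 genes under both treatments, and no site was called with vehicle alone. TGFβ libraries 1, 2 and 3 called 20, 30 and 6 of the 30 sites, and vehicle libraries 1, 2 and 3 called 11, 13 and 3. TGFβ library 2, the longest list, thus held every site, and 9 sites were called in it alone. Of all 64286 regions, 32113 were called in 1 list only, a larger share than the 9 of 30 sites. Over the genome, the shares of regions called in TGFβ libraries 1, 2 and 3 were 47.9%, 64.5% and 27.7%, against 66.7%, 100% and 20% of the 30 sites. With vehicle they were 20.2%, 29.8% and 24.5%, against 36.7%, 43.3% and 10% of the 30 sites. The windows therefore had a larger share of called sites than the genome in each batch 1 library and a smaller share in both batch 2 libraries.

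**Figure D1:**
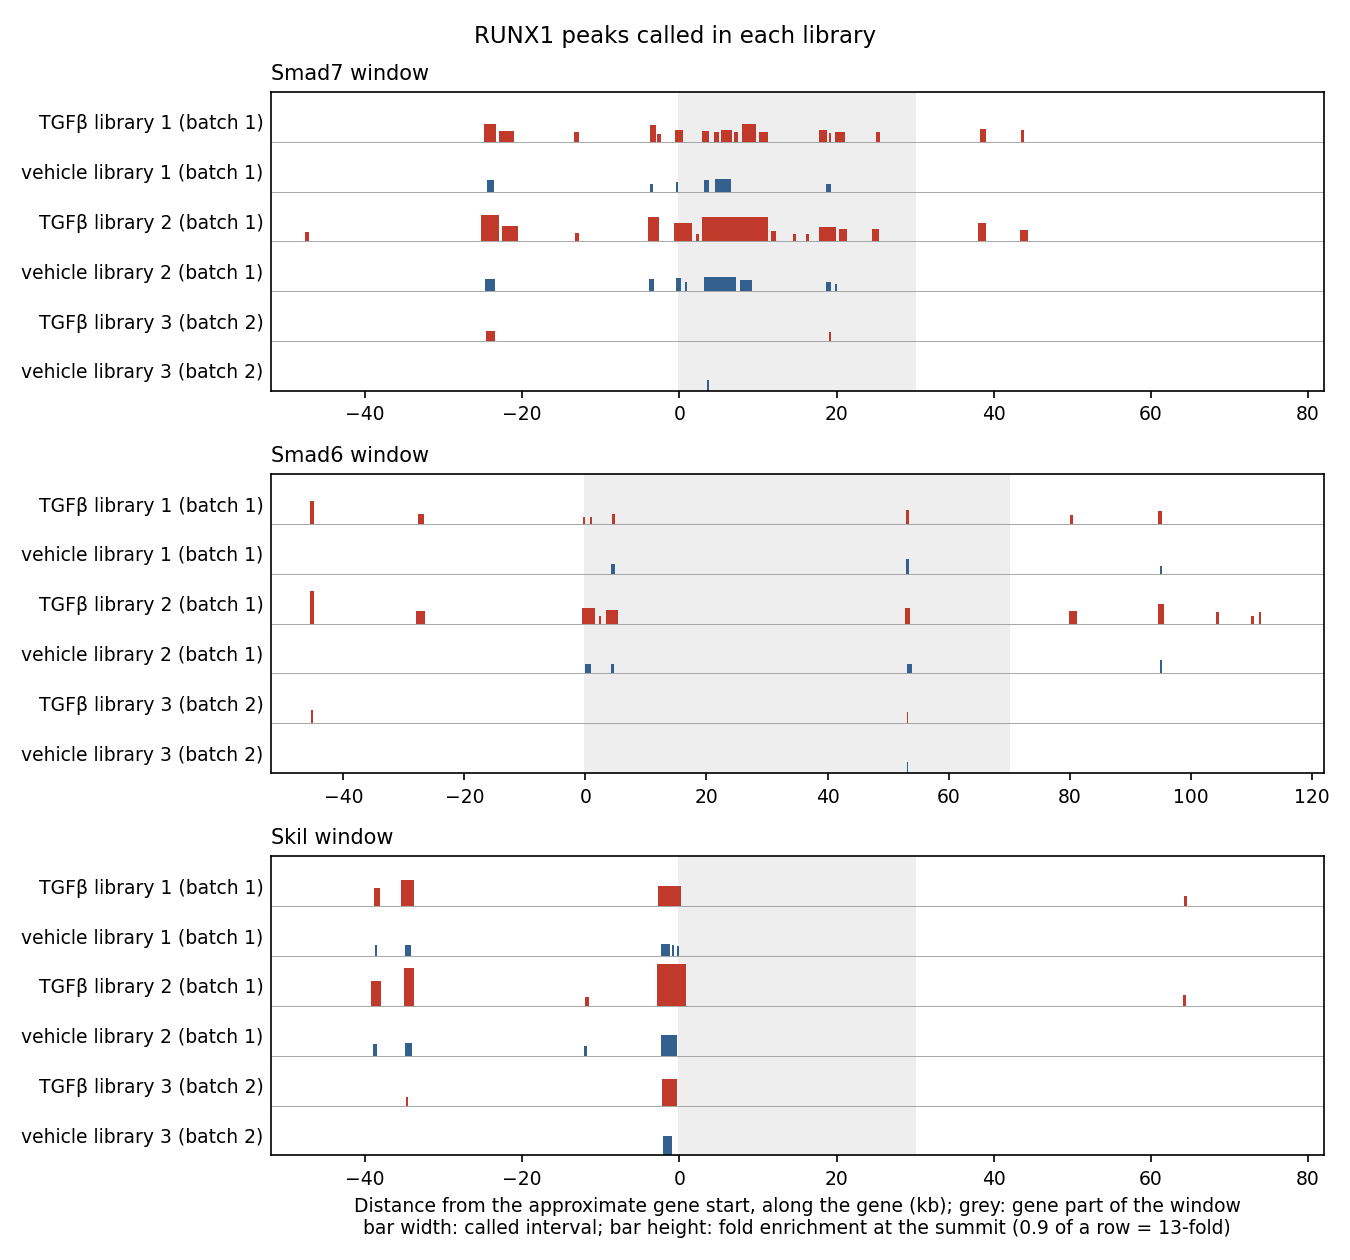
Peaks called in each of the 6 libraries in the Smad7, Smad6 and Skil windows. The x axis is the distance in kb from the approximate gene start along the direction of the gene, the grey area is the gene part of the window, bar width is the called interval (drawn at least 0.25 kb wide) and bar height the fold enrichment at the summit. Peaks run through the first part of Smad7 in batch 1, sit in separate sites around Smad6, and gather before and at the start of Skil; batch 2 has 1 or 2 peaks per window.

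Gene starts are approximate in what follows. The deposited lists name no genes, and the gene table at hand is of another build (GRCm38.p6), so the start was taken 50 kb inside the window and is known to about 5 kb. Smad7 and Skil are read toward higher coordinates and Smad6 toward lower ones. Whether a site lies in an exon, an intron or a UTR was not analysed here. Sites are numbered by position along the chromosome within each window.

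At Skil the site at the approximate gene start had the highest fold of the window in every library but TGFβ library 1, where Skil site 2 was higher. Skil site 4, on chromosome 3 from 31147195 to 31150815, was 1 of 2 sites in the windows called in all 6 lists, as were 6.36% of all regions. Its fold enrichment was 5.76, 12.01 and 7.61 in TGFβ libraries 1, 2 and 3, from 70, 136 and 124 fragments. With vehicle it was 3.60, 6.06 and 5.62 in libraries 1, 2 and 3, from 41, 74 and 71 fragments. The TGFβ library was the higher one in every pair, by 1.6-, 1.98- and 1.35-fold, but the groups overlapped, since vehicle library 2 lay above TGFβ library 1. These ratios stood at the 64.2, 77.5 and 83.0 percentile of all regions called in both libraries of pairs 1, 2 and 3. A higher fold with TGFβ in all 3 pairs was also found at 72.4% of all regions called in all 6 lists. The counting intervals of pair 2 did not meet (10.1 to 14.2 with TGFβ, 4.77 to 7.58 with vehicle), whereas those of pair 1 did (4.50 to 7.25 and 2.61 to 4.85).

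This Skil start site stood out most in batch 2. Its fold ranked in the 99.2 percentile of all peaks of TGFβ library 3 and in the 98.8 percentile of vehicle library 3, against 83.8 and 95.7 in TGFβ libraries 1 and 2 and 65.3 and 90.6 in vehicle libraries 1 and 2. The background under the summit in TGFβ library 3 was 1.46 times the lowest of that list, the highest ratio at any summit in the windows, and its part in the result was not tested. Peaks over the site were 2922 and 3621 bp wide in TGFβ libraries 1 and 2 and 2022 bp in vehicle library 2, while vehicle library 1 broke it into 3 peaks of at most 1109 bp. In batch 2 the widths were 1796 bp with TGFβ and 1076 bp with vehicle. The summits of the 2 batch 2 libraries were 14 bp apart and those of the 2 batch 1 vehicle libraries 13 bp apart. Those of the 2 batch 1 TGFβ libraries were 937 bp apart. The vehicle summits also differed between batches, at 31148144, 31148157 and 31148507 in libraries 1, 2 and 3. The highest point of this broad site was thus not fixed under either treatment.

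Skil site 2 had the largest difference between treatments in fold among the sites called in both libraries of a pair. It lies about 34.6 kb before the gene start, on chromosome 3 from 31114588 to 31116285, on the side of Prkci, which precedes Skil in the order of protein-coding genes, with Cldn11 on the other side. Its fold was 7.62 and 10.9 in TGFβ libraries 1 and 2 (93 and 123 fragments) and 3.08 and 3.554 in vehicle libraries 1 and 2 (35 and 43 fragments). Both batch 1 TGFβ values thus lay above both vehicle values, and neither TGFβ counting interval of batch 1 met a vehicle one. The ratios, 2.47 in pair 1 and 3.06 in pair 2, exceeded those of most other regions called in both libraries, at the 91.4 percentile of 12009 regions and the 95.1 percentile of 17316. All 4 batch 1 summits fell within 46 bp of each other.

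Batch 2 gave a weaker picture of Skil site 2. TGFβ library 3 called it at a fold of 2.51, from 28 fragments, with an interval of 1.70 to 3.59. Vehicle library 3 did not call it, although its weakest calls at the lowest background started at a fold of 2.03 and 25 fragments. Batch 2 has 1 library per treatment and these limits are close together, so no difference was detectable there.

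The remaining Skil sites followed the same order in batch 1, with 1 exception. Skil site 1, about 38.6 kb before the start, had folds of 5.19 and 7.28 with TGFβ and 3.08 and 3.47 with vehicle. Skil site 5, about 64.4 kb past the start, was called in both batch 1 TGFβ lists and no vehicle list, with folds of 2.85 and 3.15. Skil site 3, about 11.8 kb before the start, was the exception: it was called in TGFβ library 2 at 2.54 and in vehicle library 2 at 2.82, a ratio of 0.9. This ratio stood at the 4.35 percentile of all regions called in both libraries of pair 2. None of these 3 sites was called in batch 2.

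At Smad6 the site with the highest fold was called with TGFβ only. Smad6 site 11, on chromosome 9 from 63974849 to 63975498, lies about 45.2 kb before the gene start, on the side of Lctl, the next protein-coding gene. Its fold was 6.57, 9.56 and 3.72 in TGFβ libraries 1, 2 and 3, from 80, 108 and 42 fragments, and it was called in 0 of 3 vehicle lists. Vehicle lists called peaks down to folds of 2.06, 2.02 and 2.03 at the lowest background in libraries 1, 2 and 3, and the lower bounds of the 3 TGFβ intervals (5.22, 7.85 and 2.71) lay above these. The 3 TGFβ summits fell within 3 bp of each other, the narrowest span of any site called in 3 or more lists in the windows.

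Calls in all 3 TGFβ and no vehicle lists were made at 0.619% of all regions (398 of 64286), and at 1 of the 30 sites, or 3.33%. A single site is too few to set that share apart from the genome. Among the 398 regions with these calls, the fold at Smad6 site 11 stood at the 82.7, 88.6 and 96.6 percentile in TGFβ libraries 1, 2 and 3. The number of such sites in the windows was also 1 at a −log10 q of at least 5 and in lists cut to equal length. Smad6 site 11 ends 4.5 kb inside the edge of the window, and the first summit of any list beyond that edge was at 64022139.

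Smad6 site 6 was called under both treatments with overlapping folds. It lies inside the gene part, about 53.4 kb past the start, on chromosome 9 from 63875990 to 63877160, and was called in all 6 lists. The folds were 4.13, 4.47 and 3.29 in TGFβ libraries 1, 2 and 3. In vehicle libraries 1, 2 and 3 they were 4.37, 2.75 and 3.28. The groups overlapped, with a TGFβ to vehicle ratio of 0.946 in pair 1, 1.63 in pair 2 and 1.003 in pair 3. The 6 summits fell within 145 bp. The interval of each library overlapped that of its partner in all 3 pairs (3.34 to 5.87 and 1.92 to 3.82 in pair 2), so no difference was detectable at this depth within a pair.

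Calls at and near the approximate start of Smad6 were made in batch 1 only, at folds of 2.11 to 4.65. Smad6 site 9, from 63928414 to 63930536, spans the approximate start and was called at folds of 2.11 and 4.65 in TGFβ libraries 1 and 2 and 2.75 in vehicle library 2. Smad6 site 7, about 4.39 kb past the approximate start, was called in all 4 batch 1 lists, at 2.999 and 4.03 with TGFβ and 2.74 and 2.75 with vehicle. Neither was called in batch 2. Of the 3 genes only Smad6 had a RefSeq promoter entry, so only its sequence is shown. Whether Smad6 site 9 covers this RefSeq start is not known, since the builds differ.

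The 250 bases before the RefSeq start of Smad6 and the first 10 after it are given on the strand of the gene (GRCm38.p6, minus strand, chr9:64022050-64022309, a build whose positions cannot be set against those of the peaks), with the palindromic SMAD-binding element in capitals.
Smad6 promoter: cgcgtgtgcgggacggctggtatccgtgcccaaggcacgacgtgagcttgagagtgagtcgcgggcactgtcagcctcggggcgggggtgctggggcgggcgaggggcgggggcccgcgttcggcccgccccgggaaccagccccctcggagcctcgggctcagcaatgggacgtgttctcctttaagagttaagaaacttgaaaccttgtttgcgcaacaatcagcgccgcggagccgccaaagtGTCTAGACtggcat

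The Smad6 sequence, with 66.2% G and C, held neither form of the RUNX motif that was searched on both strands. TGTGGT occurs in 14.5% and TGCGGT in 5.31% of the 32851 promoter entries of the same length. The short SMAD motif CAGAC, found in 44.0% of entries, was also not in this window. The element GTCTAGAC, which reads the same on both strands, begins at base 247 of the 260 and so spans the start; it occurs in 0.177% of entries. It was looked for after the sequence had been seen, does not contain any of the other motifs, and is a match of letters only, not a measured binding site.

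Smad6 site 4, about 95.1 kb past the start and so beyond the gene part, was called in all 4 batch 1 lists, at 3.65 and 5.61 with TGFβ and 2.19 and 3.80 with vehicle, so that the treatments overlapped. Both batch 1 TGFβ lists and no other list called Smad6 sites 5 and 10, at folds of 2.68 and 2.92 in library 1 and 3.68 at both in library 2. The remaining 4 sites were called in TGFβ library 2 alone, at folds of 2.10 to 3.42.

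In batch 1 Smad7 had the most RUNX1 peaks of the 3 genes, and they ran through the first part of the gene. TGFβ libraries 1, 2 and 3 called 18, 16 and 2 peaks in its window, and vehicle libraries 1, 2 and 3 called 6, 8 and 1. Within the 30 kb taken as the gene part, peaks covered 9.77 and 15.8 kb in TGFβ libraries 1 and 2 and 3.33 and 6.98 kb in vehicle libraries 1 and 2. In batch 2 they covered 0.238 kb with TGFβ and 0.318 kb with vehicle. The gene part was therefore covered more with TGFβ in both batch 1 pairs, slightly less in the batch 2 pair, and far less in batch 2 under either treatment. Over the whole lists called length was also higher with TGFβ, by 2.77-, 2.47- and 1.27-fold in pairs 1, 2 and 3. The peak ratios of the Smad7 window were 3, 2 and 2 in these pairs, against 2.28, 1.95 and 1.16 over the whole lists.

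Smad7 site 7 is the broad domain behind these lengths. It extends from 75502893 to 75511329 on chromosome 18, inside the gene part and centred about 7.11 kb past the approximate start. TGFβ library 2 called all of it as 1 peak of 8437 bp, a width reached by 31 of its 42050 peaks (0.0737%). TGFβ library 1 called 6 separate peaks covering 6250 bp, and vehicle libraries 1 and 2 called 2 peaks each, covering 2741 and 5509 bp. The highest folds were 5.11 and 7.01 in TGFβ libraries 1 and 2 and 3.77, 4.04 and 3.10 in vehicle libraries 1, 2 and 3. TGFβ library 3 did not call it. The fold ratios at Smad7 site 7, 1.355 in pair 1 and 1.737 in pair 2, stood at the 44.9 and 65.4 percentile of all regions called in both libraries.

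The highest point of Smad7 site 7 was not at the same place under the 2 treatments. In TGFβ libraries 1 and 2 the summits of the strongest peak lay 26 bp apart, at 75508823 and 75508797. In vehicle libraries 1 and 2 they lay 15 bp apart, at 75505727 and 75505742, which is 3055 bp or more from the TGFβ summits. The vehicle library 3 summit was at 75503715, apart from both. Positions thus repeated within a treatment of batch 1 and differed between treatments there, with 2 libraries on each side and no test. Where a list held several peaks in the site, only the summit of the strongest was used. A change in which peak was strongest was not told apart from a move of the summit.

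A like difference in the place of the strongest summit was seen in batch 1 upstream of the gene. Smad7 site 2, from 75474773 to 75479499 and about 22.9 kb before the start, had folds of 5.19, 7.54 and 2.93 in TGFβ libraries 1, 2 and 3 and 3.34 and 3.554 in vehicle libraries 1 and 2. Both batch 1 TGFβ values exceeded both vehicle values, with ratios of 1.55 and 2.12, at the 61.0 and 82.2 percentile of all regions called in both libraries. The batch 1 TGFβ summits were 26 bp apart and the batch 1 vehicle summits 11 bp apart, with 331 bp between the nearest of the 2 kinds. The summit of TGFβ library 3, at 75475877, lay just before those of vehicle libraries 1 and 2, at 75475884 and 75475895. The difference was thus not seen in batch 2, where vehicle library 3 made no call.

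Closer to the Smad7 start, Smad7 site 4 (about 3.17 kb before it) had folds of 4.78 and 7.01 with TGFβ and 2.14 and 3.63 with vehicle in libraries 1 and 2. Its ratio in pair 1, 2.23, was the largest in the Smad7 window. Smad7 site 5, which spans the approximate start from 75499367 to 75501656, had folds of 3.32 and 5.43 in the batch 1 TGFβ libraries and of 2.91 and 3.72 in their vehicle partners, so that the treatments overlapped. Its ratios, 1.14 and 1.46, stood at the 25 and 45.3 percentile of all regions called in both libraries. Neither site was called in batch 2.

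Smad7 site 11, late in the gene part at about 19.6 kb, was called in 5 lists. Its strongest summits did not separate by treatment as at Smad7 sites 2 and 7. Those of the batch 1 TGFβ libraries were 826 bp apart and those of the batch 1 vehicle libraries 460 bp apart. The nearest of the 2 kinds were 18 bp apart. Folds were 3.57, 4.30 and 2.60 in TGFβ libraries 1, 2 and 3 and 2.23 and 2.58 in vehicle libraries 1 and 2, so that each TGFβ value lay above each vehicle value. The lowest TGFβ value (2.60, from 29 fragments) and the highest vehicle value (2.58, from 31 fragments) were nonetheless indistinguishable within their counting intervals, 1.77 to 3.69 and 1.78 to 3.64. The ratios at Smad7 site 11, 1.602 in pair 1 and 1.662 in pair 2, stood at the 64.4 and 60.8 percentile of all regions called in both libraries. Another 4 Smad7 sites were called in both batch 1 TGFβ lists and no other, at folds of 2.76 to 3.65 in library 1 and 2.45 to 5.43 in library 2. The last 5 were called in TGFβ library 2 alone, at 2.19 to 3.05.

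**Figure D2:**
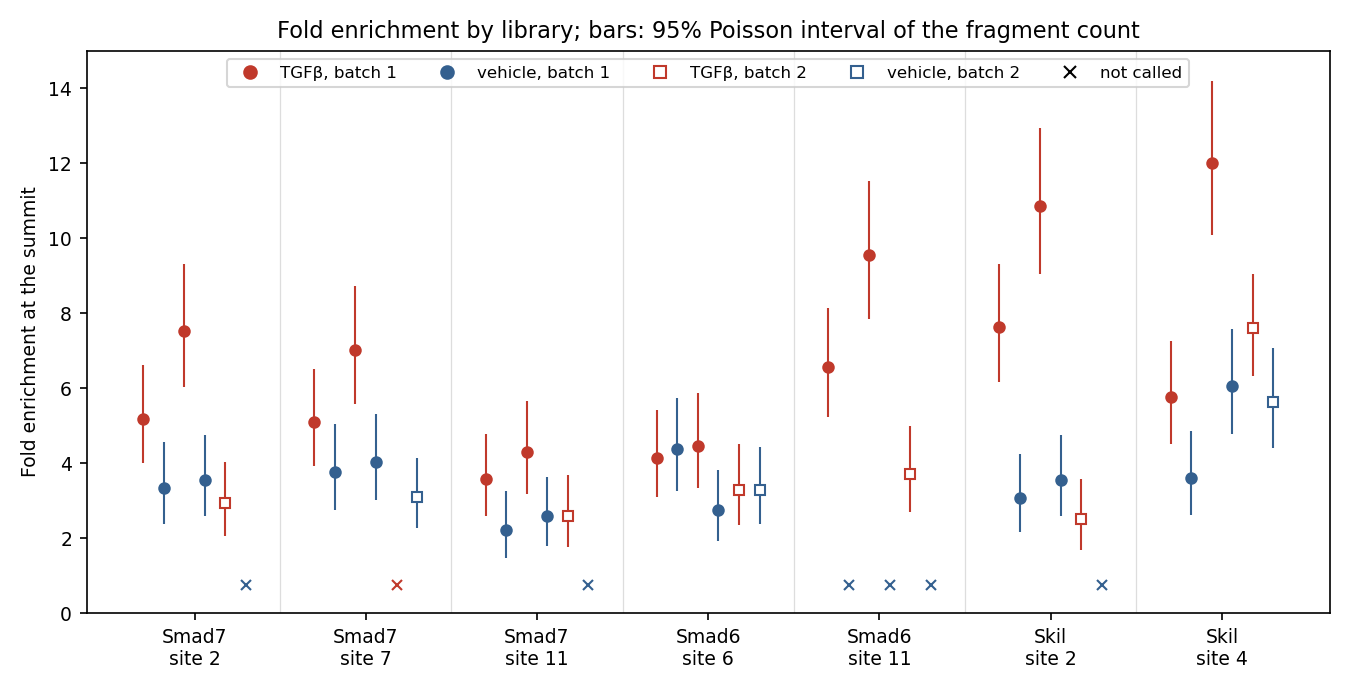
Fold enrichment at the summit (y axis) in each library at the 7 sites of the Smad7, Smad6 and Skil windows given library by library (x axis). Points are libraries, bars the 95% Poisson interval of the recovered fragment number, and crosses near the axis mark libraries without a call; batch 1 TGFβ values lie above batch 1 vehicle values at Smad7 sites 2, 7 and 11 and Skil site 2, overlap them at Smad6 site 6 and Skil site 4, and have no vehicle counterpart at Smad6 site 11.

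The windows were then compared between treatments library by library. TGFβ libraries had 22.7 ± 14.5 peaks (SD, n = 3) in the 3 windows and vehicle libraries 11 ± 7 (SD, n = 3). The 2.06-fold difference did not pass 0.05 in the two-sided exact permutation test (p = 0.3; the smallest p that 3 against 3 libraries allow is 0.1). In pairs 1, 2 and 3 the ratios were 2.14, 2 and 2, so TGFβ was higher in 3 of 3 pairs. The same ratios over the whole lists were 2.28, 1.95 and 1.16. In lists cut to the length of the shortest, where whole lists do not differ in length by construction, the ratio in the windows was 1.15.

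By gene, the ratio of mean peak numbers was 2.4 at Smad7, 2.62 at Smad6 and 1.1 at Skil (exact permutation p = 0.3, 0.3 and 1). Over the whole lists the ratio of means was 1.795. At Smad6 the ratio was 5.33 among peaks with a −log10 q of at least 5, and at Smad7 1.17 in lists of equal length. The 5.33 rests on few vehicle peaks, those at Smad6 site 6 in libraries 1 and 3 and at Smad6 site 4 in library 2. It was not set against the whole lists at the same cutoff. Skil had 4, 5 and 2 peaks in TGFβ libraries 1, 2 and 3 and 5, 4 and 1 with vehicle, and the direction there changed with the setting: the ratio was 0.8 in lists of equal length and 0.667 in windows narrowed by 25 kb. The broken start site of vehicle library 1 counts as 3 of its 5 peaks. Whether the 3 genes differ from each other in this ratio was not tested.

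Called length differed in the same direction. Peaks covered 27082, 42959 and 3968 bp of the windows in TGFβ libraries 1, 2 and 3, and 9227, 16009 and 1683 bp with vehicle. The ratio of means was 2.75 (exact permutation p = 0.3), and the ratios in pairs 1, 2 and 3 were 2.94, 2.68 and 2.36, against 2.77, 2.47 and 1.27 over the whole lists. It was 1.73 without TGFβ library 2 and 4.52 without vehicle library 2. Every TGFβ library exceeded its partner, while the batch 2 libraries of both treatments lay below all batch 1 libraries.

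**Figure D3:**
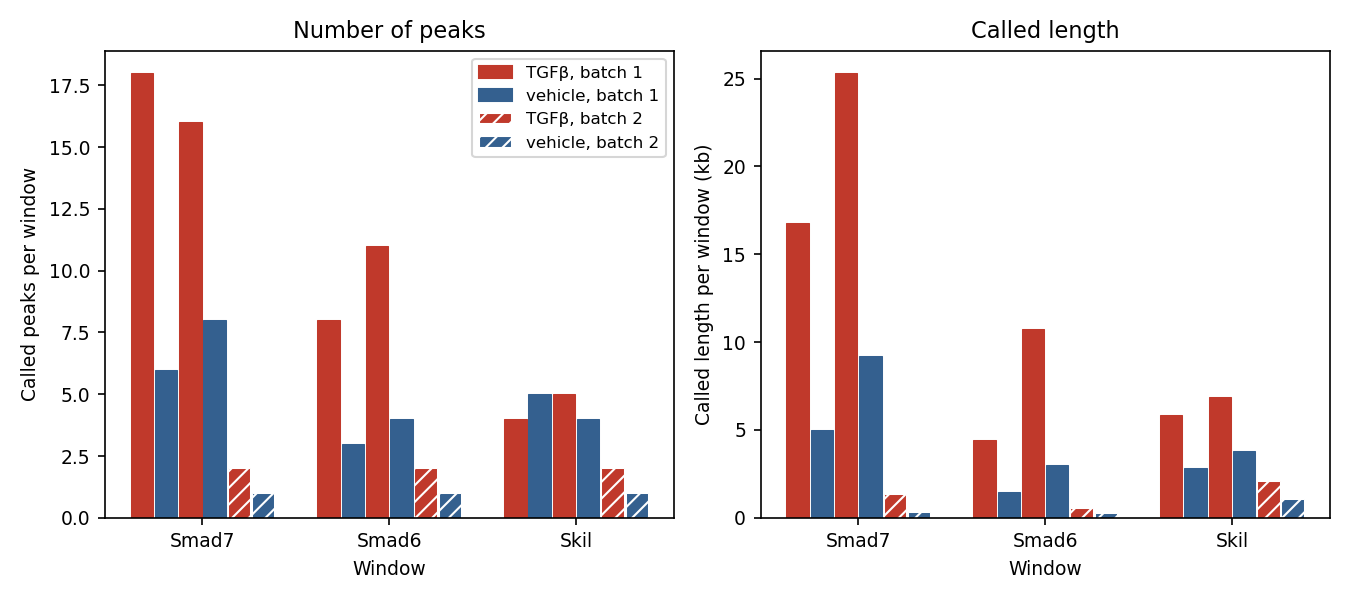
Number of called peaks (left) and called length in kb (right) in the Smad7, Smad6 and Skil windows, 1 bar per library, with TGFβ in red, vehicle in blue and batch 2 hatched. Smad7 and Smad6 have more peaks with TGFβ in each pair, Skil has 4 and 5 against 5 and 4 in batch 1, and batch 2 bars are at 1 or 2 peaks.

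Calls were compared next. Of the 30 sites, 17 (56.7%) were called in TGFβ lists only and 0 in vehicle lists only, where 51.6% and 14.6% of all regions had such calls. In batch 1 alone, 8 sites were called in both TGFβ lists and neither vehicle list (4 at Smad7, 3 at Smad6 and 1 at Skil), or 26.7%, against 16.0% of all regions. There were 0 sites with the reverse calls, against 0.204% of all regions, and 0 called in all 3 vehicle and no TGFβ lists, against 0.0109%. The count of 8 became 2 in lists of equal length and 5 in narrowed windows. It became 19 without TGFβ library 1, where TGFβ library 2 alone had to call the site. These altered counts were not set against the share of all regions under the same settings. Median fold at the 8 sites was 2.92 and 3.64 in TGFβ libraries 1 and 2, near the 2.85 and 3.33 of all regions with these calls.

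Fold enrichment was compared where both treatments had a call. In all 4 batch 1 lists 11 sites were called, and at 7 of them both TGFβ values lay above both vehicle values: Smad7 sites 2, 4, 7 and 11, Smad6 site 7 and Skil sites 1 and 2. The same held for 68.8% of the 11360 regions called in all 4 lists, so the sites of the 3 genes were close to the background in this respect. The median ratio over the sites was 1.6 in pair 1 (11 sites, 10 of them higher with TGFβ) and 1.69 in pair 2 (13 sites, 12 higher). Over all regions called in both libraries the medians were 1.41 and 1.52. In pair 3 the 2 sites, Smad6 site 6 and Skil site 4, had ratios of 1.003 and 1.35, against a median of 1.11 over 7713 regions.

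At these 2 sites, called in all 6 lists, mean log2 fold was 2.49 ± 0.33 (SD, n = 3) with TGFβ and 2.04 ± 0.06 (SD, n = 3) with vehicle. The difference of 0.45 was in the same direction in 3 of 3 pairs (0.30, 0.84 and 0.22) and reached the smallest p the design allows (two-sided exact permutation p = 0.1). It was 0.27 without TGFβ library 2. Over all 4087 regions called in all 6 lists the same difference was 0.47, and 72.4% of them had the higher fold with TGFβ in all 3 pairs. The difference at the 2 sites was thus close to that of shared regions over the genome.

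**Figure D4:**
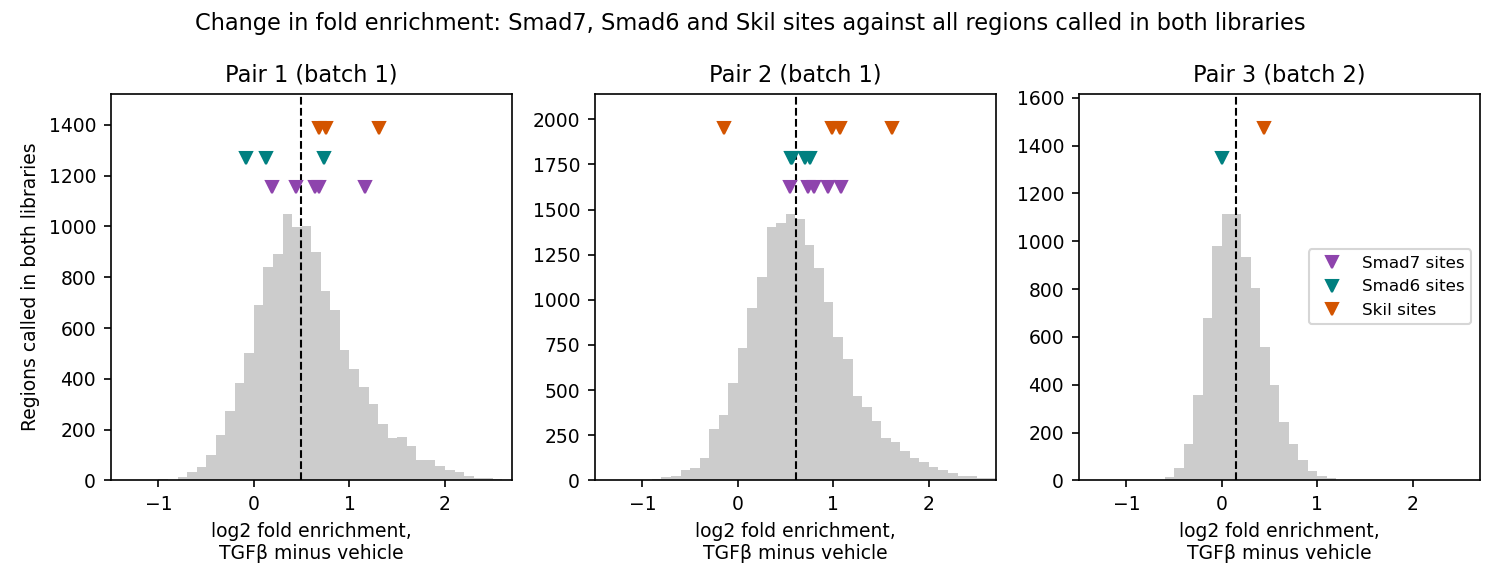
Histograms of the log2 fold enrichment of TGFβ minus vehicle over all regions called in both libraries of pairs 1, 2 and 3 (y axis, number of regions), with the Smad7, Smad6 and Skil sites as triangles and the median of all regions as a dashed line. Most triangles lie within the bulk of the regions, Skil site 2 lies far to the right at 1.31 and 1.61 in pairs 1 and 2, and Smad6 site 6 lies left of the median in pairs 1 and 3. Skil site 3 lies to the left at -0.149 in pair 2.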

How the data were processed

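RUNX1 ChIP-seq peak lists of 6 libraries were used; the 4 input libraries were not analysed here. The submitters' processing notes name DRAGEN, Trimmomatic, Bowtie2 2.5.2, MACS2 and the build GRCm39; settings and control library are not given in the sources used here. Lists were deposited per library, not pooled, as the peak names in the files show. Each deposited row gives a fold enrichment over background (a ratio), −log10 p-value and q-value, and a score, all by the authors' caller. The lowest deposited −log10 q was just above 1 in each list. Coordinates are printed 1-based.

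With Python 3.11.15, pandas 2.3.3 and SciPy 1.17.1, peaks overlapping by at least 1 bp were merged over the genome, and regions with a summit in a window became sites, whose fold in a list is the highest of their peaks. Lists carry no read counts per region, so no count model was fitted. Fragment numbers were solved from fold and p-value (Poisson, pseudocount 1) and matched within 0.001 (−log10 p) at all summits in the windows. Merging and recovery were tested on simulated data. Treatments were compared by exact permutation of library labels (two-sided, 20 labelings).

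The rule for sites given library by library took those called in at least 5 lists, those called in all lists of 1 treatment and none of the other, and the strongest of each window. Its part on gene starts needed gene positions of this build and was not applied; the sites at the approximate starts of Smad7 and Smad6 and the other sites named singly were added after their values were seen. The 12 other inhibitor genes listed for counts were not analysed here, since gene positions of this build were not at hand. Members and lists were chosen with earlier results of these data known. Libraries were paired by batch and title wording; over all regions, r between the partners' deviations in calls from their treatment's mean was 0.135 for pair 1, 0.225 for pair 2 and 0.418 for pair 3.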

Additional observations from a re-analysis of the deposited data

How the results depend on the processing

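Results were recomputed with a minimum −log10 q of 5, lists cut to 14733 peaks, windows narrowed by 25 kb at both ends, summit windows of 200 bp, peaks no wider than 2000 bp, batch 1 only, a replicate block (the 3 pairs) and leaving out each library. Direction held under all 12 for the peak ratio of the 3 windows (1.15 to 2.82), for Smad7 (1.17 to 3.43) and for Smad6 (1.8 to 5.33). It also held under all 13 for called length (1.73 to 4.52) and for fold at sites called in every list (log2 0.21 to 0.70). With the replicate block all of these, in the order given, were 2.05, 2.29, 2.45, 2.65 and 0.45 (exact sign-flip p = 0.25 each, the smallest possible). The pairing changed no call. The block does not apply to the counts of sites. Both ends of the fold range rest on 1 site, since the 2 sites were not both kept under every setting. The 0.70, at a −log10 q of at least 5 and in lists of equal length, is of the Skil start site alone. The 0.21, with summit windows of 200 bp and with peaks no wider than 2000 bp, is of the Smad6 site alone.

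The Skil peak ratio of 1.1 turned to 0.8 in lists of equal length and 0.667 in narrowed windows, and ran from 0.815 to 1.47 without 1 library (0.9 without TGFβ library 2, 0.815 without vehicle library 3); the cause was not tested. Sites called in both batch 1 TGFβ lists and neither vehicle list numbered 2 in lists of equal length, 5 in narrowed windows, and 8 to 19 without 1 library. Leaving out a batch 1 library eases the condition for this count. Sites called in all TGFβ and no vehicle lists numbered 0 in narrowed windows, which leave out Smad6 site 11, 8 in batch 1 only, and 1 to 8 without 1 library (8 without TGFβ library 3), by construction with fewer lists to satisfy. With 3 against 3 libraries the p-values say nothing about stability.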
